A study of Mus musculus with 60 samples.

Results

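Fibroblasts from the tail tips of Ercc1-deficient mice were treated with DMH-1, an inhibitor of the BMP type I receptor ALK2 (encoded by Acvr1), and compared with control cells of the same genotype. The comparison rests on 6 of the 60 libraries of the series, 3 with DMH-1 and 3 controls, chosen by the treatment in their labels. All 6 held D/KO cells, which carry the Ercc1 (d/-) genotype and are labelled female, 4 weeks. DMH-1 was given at 1 µM for 3 days, and the study describes the control cells as non-treated. Whether the 3 libraries of a group came from separate cultures is also not given, so the p-values measure the spread between these libraries, which may be technical. The mice were of a C57BL6J|FVB hybrid background, and how many mice gave the cells is not stated, so the cells may stand for 1 animal. The fit also held 12 other libraries of the same experiment, 3 each of D/KO cells with Repsox (0.1 µM), Vactosertib (0.1 µM) or A83-01 (1 µM) and of WT control cells, Ercc1 (+/+), labelled female, 14 weeks. Cells were grown at 3% O2.

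BMP ligands bind a pair of type I and type II receptors, and the type I receptor phosphorylates Smad1, Smad5 and Smad9, which switch on Id1 to Id4 and the inhibitory Smad6. TGF-beta and activins act through other type I receptors, Tgfbr1 and Acvr1b, and Smad2 and Smad3, and in fibroblasts they switch on matrix and contractile genes such as Ccn2 and Acta2. Ercc1 encodes a subunit of the XPF-ERCC1 nuclease of nucleotide excision repair. Interferons act through factors such as Stat2 and Irf9, which bind the interferon-stimulated response element and switch on antiviral genes.

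Library totals ran from 17102639 counts (control library 3) to 30599138 (DMH-1 library 1). Expression is given as CPM, counts per 1000000 of a library's total, scaled by TMM, in the order of libraries 1, 2 and 3. Single genes use the TMM factors of the 18 libraries of the fit. Summed levels of lists use those of all 24 libraries of the inhibitor table. Ercc1 had 21.6, 21.4 and 22.1 CPM in the controls and 20, 19.5 and 25 CPM with DMH-1, so the transcript was read in all 6 libraries and did not pass the test (log2 fold change -0.016 ± 0.16 (SE), adjusted p = 0.97). Of 13 fibroblast markers, all were above 1 CPM in at least 1 of the 6 libraries, and Pdgfra had 465, 539.6 and 548 CPM in the controls and 494, 517 and 451 CPM with DMH-1. Dcn and Lum of that list were called higher and Thy1 lower (-0.36), and its summed level was 79476 to 84733 CPM against 68411 to 86038 CPM. Endothelial markers were also read in every library: Pecam1 had 99.4, 103 and 103 CPM in the controls and 115, 133 and 122 CPM with DMH-1, and none of the 8 endothelial markers was at 0. Tek, Tie1 and Cldn5 of that list rose (log2 fold changes 0.58, 0.54 and 1.04), while Pecam1 and Cdh5 did not pass the test, and Tie1 lost its call without control library 1, control library 2 or DMH-1 library 1. The summed level of the list was 360.4 to 395 CPM in the controls and 431 to 516 CPM with DMH-1. Markers of Schwann cells and melanocytes summed to 23.5 to 26.1 CPM against 36.7 to 40.3 CPM, with Sox10 and Mbp of 7 tested called higher (Sox10 lost its call without DMH-1 library 2 or without control library 3), and those of adipocytes to 48.9 to 52.9 CPM against 87.9 to 95.9 CPM, with Cebpa of 3 tested called higher and Adipoq, Cidec and Lep at 0. The part of these cells in the results was not tested. Keratinocyte markers summed to 3.96 to 6.25 CPM in the 6 libraries, with Krt14 at 0. Of 10 lymphoid markers, 9 had no count in any of the 6 libraries. Fewer cells of a type and less RNA per cell cannot be told apart in such bulk libraries.

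DMH-1 library 2 stood apart from the other 2 DMH-1 libraries in interferon-stimulated genes. The summed level of 87 such genes, in 4 lists (sensors of foreign nucleic acid, factors of interferon signaling, antiviral effectors and interferon-inducible GTPases), was 1205 to 1254 CPM in the 3 controls. It was 1472 CPM in DMH-1 library 1, 6061 CPM in library 2 and 1564 CPM in library 3. The D/KO libraries with Repsox, Vactosertib or A83-01 had 1497 to 1814 CPM and the WT control libraries 1776 to 2209 CPM. DMH-1 libraries 1 and 3 thus lay above all 3 D/KO controls and near the range of the other inhibitors, and library 2 lay above every other library.

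**Figure D1:**
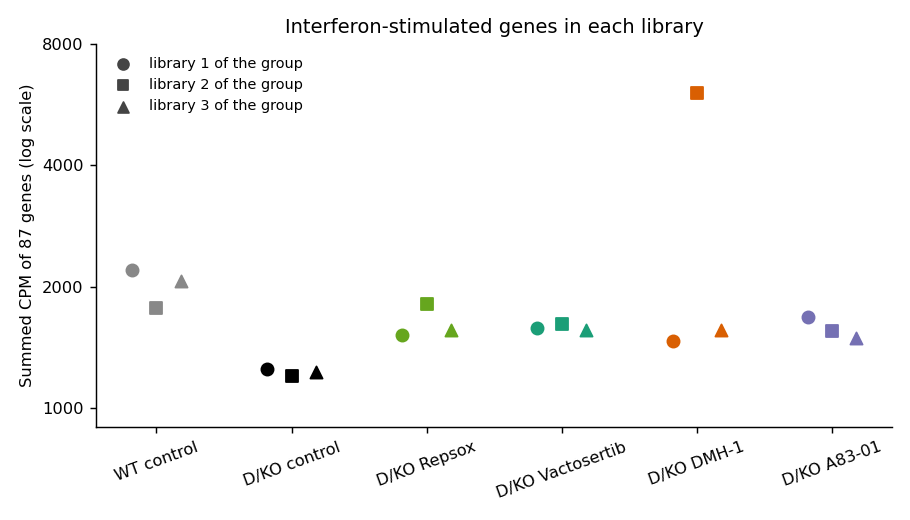
Summed CPM of 87 interferon-stimulated genes (vertical axis, log scale) in each of 18 libraries, by group; the symbol gives the library's number in its group. DMH-1 library 2 is at 6061 CPM, and the other 2 DMH-1 libraries are at 1472 and 1564 CPM, above the 3 D/KO controls.

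Many of these genes hold 1 short sequence before their start sites. It is shown here for those of the 10 largest rises with DMH-1 whose promoter, as RefSeq lists it, holds it. Each stretch is printed 5′ to 3′ on the strand of the gene (build GRCm38.p6). Capitals mark each match to the core of the interferon-stimulated response element, a GAAA block, any 2 bases and a second GAAA block, read on either strand, with overlapping matches joined. Oasl2, also among the 10, has no match in its window, and no promoter was matched for Iigp1, Usp18 and Mx2.
Ifit3, chr19:34583358-34583431 (+ strand): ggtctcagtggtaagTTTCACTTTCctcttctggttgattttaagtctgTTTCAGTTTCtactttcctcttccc
Ifit1, chr19:34640770-34640828 (+ strand): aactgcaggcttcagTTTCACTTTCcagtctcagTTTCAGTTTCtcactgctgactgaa
Isg15, chr4:156200860-156200911 (- strand): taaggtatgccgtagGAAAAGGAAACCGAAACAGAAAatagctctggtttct
Ifit3b, chr19:34607754-34607827 (+ strand): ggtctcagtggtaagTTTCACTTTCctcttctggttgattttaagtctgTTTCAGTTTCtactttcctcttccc
Slfn8, chr11:83020834-83020873 (- strand): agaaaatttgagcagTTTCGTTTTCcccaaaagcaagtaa
Apol9b, chr15:77729020-77729065 (+ strand): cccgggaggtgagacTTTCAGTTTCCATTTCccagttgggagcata
In the 250 bases before the start site, 27 of 61 interferon-stimulated genes with a promoter in the table held this motif (44.3%), against 936 of 27025 genes (3.46%) in the whole table. The share was 24 of 42 (57.1%) among genes at least 4 times higher in DMH-1 library 2 than in both others of its group. Of the TGF-beta targets, 1 of 8 with a promoter held it, and of the BMP targets 0 of 14. A match describes the letters in this window and does not show binding. The stretches printed for Ifit3 and Ifit3b hold the same letters, but how alike their transcripts are was not measured. Reads of like genes can be split between them by the counting, so the separate values of Ifit3 and Ifit3b are uncertain. The same may hold for other families of like genes, such as Apol9, Slfn, Gbp and the MHC class I genes.

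Ifit3, an antiviral effector, had 2.14, 2.15 and 2.25 CPM in the controls and 18.5, 228 and 18.5 CPM with DMH-1. Ifit1 had 2.32, 1.85 and 1.56 CPM in the controls and 6.09, 209 and 9.9 CPM with DMH-1. For Isg15, a ubiquitin-like modifier, the values were 2.19, 2.67 and 1.5 CPM against 5.59, 189.6 and 6.19 CPM. In all 3 genes DMH-1 library 2 was far above libraries 1 and 3, and these in turn were above every control. Irf7, the factor that amplifies interferon signaling, had 4.33, 3.18 and 4.49 CPM in the controls and 7.6, 136 and 7.62 CPM with DMH-1. Stat2 had 19.5, 22.3 and 23 CPM against 28.2, 169.7 and 28.3 CPM. Bst2, which tethers budding virus to the cell, had 15.8, 13 and 10.6 CPM against 25.8, 398 and 31.5 CPM, and the GTPase Iigp1 had 0.179, 0.154 and 0.312 CPM against 0.658, 36.8 and 0.794 CPM. Each of these genes had the order of Ifit3, with library 2 highest, DMH-1 libraries 1 and 3 next and the controls lowest.

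The whole set was taken by a rule chosen after the values were seen: genes at least 4 times higher in 1 library than in both others of its group (with 0.5 CPM added) and at 1 CPM or more. DMH-1 library 2 had 55 such genes, 42 of them in the lists of interferon-stimulated, interferon-induced chemokine and MHC class I genes, and the other 17 libraries had 0 to 4. None was 4 times lower in library 2 than in both others. Genes outside those lists included Apod, a lipid-binding protein, with 13.2, 9.84 and 12.7 CPM in the controls and 40, 285 and 43.5 CPM with DMH-1, and Rnf213, with 23.7, 36.2 and 37.8 CPM against 33.5, 221 and 32.8 CPM. Both are named after their values were seen. The 29866888 counts of DMH-1 library 2, its 0.663% of mitochondrial counts and 3.56% of ribosomal protein counts lay within the ranges of the other 5 libraries (0.295% to 0.784% and 3.46% to 4.63%). Macrophage markers summed to 10.4 CPM in DMH-1 library 2 and to 11.8 to 15.7 CPM in the other 5, and 7 of the 10 were under 1 CPM in all 6.

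Interferon transcripts were at or near 0. Ifnb1, Ifna1, Ifna2, Ifna4, Ifna5, Ifnk, Ifnl2, Ifnl3 and Ifng had 0 counts in all 6 libraries, which in DMH-1 library 2 allows up to 0.1 CPM each, and Ifne had 1 count in DMH-1 library 3. These limits cover counting error only. Ifnar1, a chain of the type I interferon receptor, had 74.4, 88.1 and 87.5 CPM in the controls and 75.7, 74.9 and 75.2 CPM with DMH-1, and did not pass the test. Ifngr1, a chain of the interferon-gamma receptor, rose slightly (log2 fold change 0.36 ± 0.076 (SE), adjusted p = 0.0053), with 56.8, 68.9 and 63.3 CPM against 78.8, 83.4 and 81 CPM.

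Across all genes, 904 of 15164 genes tested were higher with DMH-1 and 575 lower (5.96% and 3.79%, together 9.75%), by edgeR's quasi-likelihood test at an adjusted p under 0.05. Without DMH-1 library 2, 619 of 15560 genes were higher (3.98%) and 352 lower (2.26%), together 6.24%. Of the 904 genes, 597 were also called higher without library 2, and 332 of the 575 genes were also called lower. Leaving out any 1 of the 6 libraries gave 532 to 766 higher and 315 to 429 lower, the fewest without control library 2. In the lists that follow, a direction that is not given had no member called. Some lists share members, so a change can count in more than 1 list. Acta2, Actg2, Tagln and Cnn1 are in the TGF-beta target and contractile lists, and Smad7 is in the BMP target, TGF-beta target and Smad lists.

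Interferon-stimulated genes rested most on library 2. Of 76 tested, 44 were called higher with all libraries, and 13 without library 2, when 3.98% of all genes were called higher. Their median log2 fold change was 1.61 with library 2 and 0.49 without it, when that of all genes tested was near 0 (0.0027 and 0.0028). Both DMH-1 libraries 1 and 3 lay above all 3 controls in 43 of the 76 genes, against 22.4% of all genes tested. The count also fell to 16 to 19 without any 1 control library, at a median of 1.75 to 1.79, and rose to 54 without DMH-1 library 1 or 3. With limma voom and sample quality weights 25 were called higher and 1 lower, and Oasl2, Ifit3b and Iigp1, called by edgeR in both fits, did not pass that test. The 13 genes were Ifit2, Ifit3, Ifit3b, Oasl2, Bst2, Parp12, Uba7 and Tor3a among the effectors, Ifih1 among the sensors, Irf1 and Irf9 among the factors, and Iigp1 and Irgm1 among the GTPases. Ifit3 without library 2 gave 3.08 ± 0.29, adjusted p = 7.5e-06 (log2 fold change ± SE), against 5.34 ± 0.83, adjusted p = 0.00046 with it. Irf1 and Ifit2 moved least of the 13 between the fits. Ifit2 had 13.5, 15.5 and 15.5 CPM in the controls and 33.2, 47.8 and 32.9 CPM with DMH-1, and its log2 fold changes were 1.36 and 1.16 with and without library 2. Irf1, a factor that switches on interferon genes, had 17.7, 18.5 and 14.7 CPM against 23.5, 30.8 and 25.9 CPM, and 0.66 and 0.54. By contrast, Isg15 (1.46, adjusted p = 0.095), Ifit1 (2.04, adjusted p = 0.053) and Irf7 (0.93, adjusted p = 0.1) no longer passed the test. Ifi44 went from 5.01 to -0.24 (adjusted p = 0.88), with 0.804, 0.256 and 1.12 CPM in the controls and 0.625, 67.9 and 0.582 CPM with DMH-1.

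**Figure D2:**
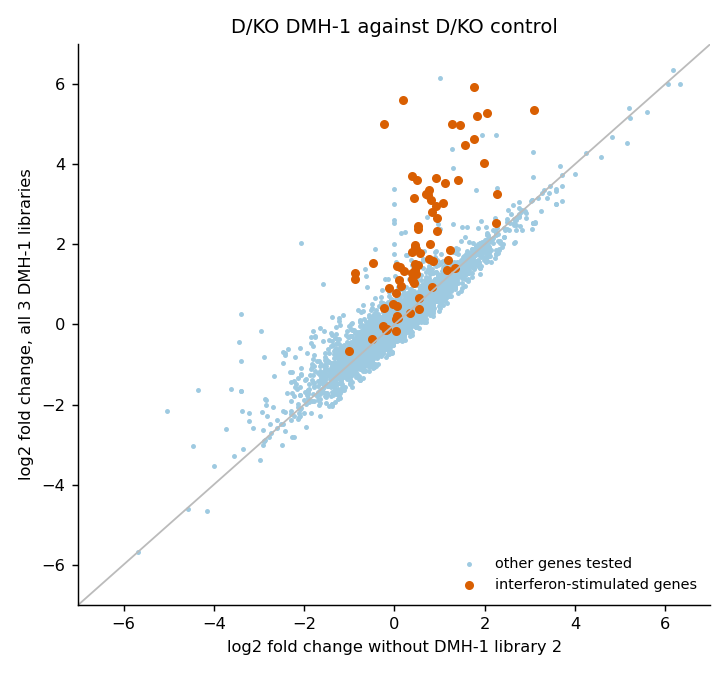
Log2 fold change of each gene tested, D/KO DMH-1 against D/KO control, without DMH-1 library 2 (horizontal) and with all 3 DMH-1 libraries (vertical); the line marks equal values. Interferon-stimulated genes (orange) have a median of 1.61 on the vertical axis and 0.49 on the horizontal axis.

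MHC class I antigen presentation moved in the same libraries. Of 19 genes tested, 9 rose with all libraries, and 2 rose without library 2, B2m and Tap1. B2m, the light chain of class I molecules, had 266, 223 and 207 CPM in the controls and 350.4, 1125 and 433 CPM with DMH-1, and its log2 fold changes were 1.45 and 0.76. The peptide transporter gene Tap1 had 28, 27.1 and 27.6 CPM against 38.5, 94.3 and 36.5 CPM. The summed level of the list was 843 to 967 CPM in the controls, 1174 and 1275 CPM in DMH-1 libraries 1 and 3, and 2642 CPM in library 2. Of 5 MHC class II genes, 0 passed edgeR's test in either fit, 0 at an unadjusted p under 0.05, and 0 by DESeq2 or limma voom, with a median log2 fold change of -0.0665. Of 15 genes of NF-kB and inflammation, 2 rose (Cxcl12 and Icam1) and 3 fell (Cxcl1, Cxcl5 and Ptgs2), of which Cxcl5 did not pass the test without library 2 (adjusted p = 0.096). Ptgs2, the inducible prostaglandin synthase, had 128, 129.9 and 122 CPM against 39.4, 39.9 and 44.1 CPM (log2 fold change -1.62 ± 0.11 (SE), adjusted p = 9e-08). Of 8 interferon-induced chemokines and cytokines edgeR called Ccl8 alone, with 36.6, 29.4 and 29.1 CPM in the controls and 68, 101 and 95.2 CPM with DMH-1. The summed level of that list was lower with DMH-1, 264 to 374 CPM against 377 to 474 CPM. Its median log2 fold change was 1.35, and 0.11 without library 2. DESeq2 called 3 of the list higher and 2 lower, and limma voom 2 and 2.

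The BMP pathway is the one that DMH-1 is meant to block. Among 21 tested BMP targets, 1 rose and 5 fell (median log2 fold change -0.419), and without library 2 the counts were 1 and 4 (median -0.351). The Id genes are the most direct of these targets. Id1 had 22.6, 19 and 20 CPM in the controls and 15.1, 13.7 and 17.1 CPM with DMH-1, and every DMH-1 library was below every control, but its log2 fold change of -0.43 had a 95% interval of -0.97 to 0.11 (adjusted p = 0.35). Id3 had 103, 98.2 and 96.1 CPM against 88.7, 76.6 and 100.5 CPM and Id4 18.8, 17.2 and 18.8 CPM against 18.6, 14.9 and 16.1 CPM, with overlapping groups in both. Their log2 fold changes, and that of Id2, did not pass the test either: Id2 was 0.24 (95% interval -0.13 to 0.61), Id3 -0.16 (-0.60 to 0.27) and Id4 -0.14 (-0.37 to 0.087). Smad6, which blocks BMP type I receptors, had 30.6, 31 and 29.8 CPM against 33.3, 28.3 and 24.8 CPM (-0.077, 95% interval -0.31 to 0.15).

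Smad7, the inhibitory Smad of both branches, fell from 38.1, 34.7 and 32.4 CPM to 24.9, 22.6 and 22.1 CPM (log2 fold change -0.60 ± 0.087 (SE), adjusted p = 0.00024). Atoh8, a helix-loop-helix factor, fell from 28.1, 26.5 and 22.3 CPM to 15.3, 17.3 and 16.9 CPM (log2 fold change -0.64 ± 0.097 (SE), adjusted p = 0.00036). Neither gene had overlapping groups, and both fell without library 2 as well. Grem1, a secreted antagonist that binds BMPs, fell from 112, 133 and 125 CPM to 56, 76 and 68.6 CPM (log2 fold change -0.88 ± 0.16 (SE), adjusted p = 0.0014). The target and signal transducer Smad9 was at a low level and fell (log2 fold change -0.67 ± 0.20 (SE), adjusted p = 0.048), but its adjusted p was 0.14 without library 2. Smad9 lost its call when any 1 of the 6 libraries was left out, and kept it in 6 of 15 alternatives. Msx1, a homeobox factor, was the one target that rose (log2 fold change 0.84 ± 0.18 (SE), adjusted p = 0.0053), with 3.04, 2.61 and 2.74 CPM against 5.59, 4.67 and 4.76 CPM. Of the other antagonists, the activin-binding Fst fell (-0.57, and adjusted p = 0.052 without library 2), while Nog, Chrd, Bmper and Twsg1 did not pass the test.

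Most ligands of the family that were called rose. Of 17 tested, 8 rose and 2 fell, and without library 2 of 18 tested 7 rose and 2 fell. Bmp6 had 5.67, 7.64 and 8.61 CPM in the controls and 29.3, 28 and 24.5 CPM with DMH-1 (log2 fold change 1.91 ± 0.15 (SE), adjusted p = 2.6e-07). Bmp2 was near the limit of detection in the controls, at 0.179, 0.154 and 0.249 CPM (4, 3 and 4 counts), and had 2.4, 1.44 and 1.8 CPM with DMH-1 (log2 fold change 3.27 ± 0.50 (SE), adjusted p = 0.00061). Each of these ligands was higher in every DMH-1 library than in any control. Bmp3, which opposes osteogenic BMPs, had 0.893, 0.923 and 1.31 CPM against 7.24, 4.1 and 6.03 CPM (2.48), and Gdf6 had 2.5, 2.77 and 3.43 CPM against 13.7, 11.7 and 10.4 CPM (2.05). Gdf7, Gdf10 and Bmp4 rose by 1.93, 1.16 and 0.66 on the log2 scale. Tgfb2 rose by 0.76, with an adjusted p of 0.051 without library 2. The 2 that fell were Bmp1, a procollagen protease despite its name (log2 fold change -0.53 ± 0.11 (SE), adjusted p = 0.0052), and Inhba, the activin A subunit (log2 fold change -0.71 ± 0.18 (SE), adjusted p = 0.019). Inhba lost its call without control library 2, control library 3, DMH-1 library 1 or DMH-1 library 3, each left out alone. The summed level of the list was lower with DMH-1, 1072 to 1155 CPM against 1191 to 1318 CPM.

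**Figure D3:**
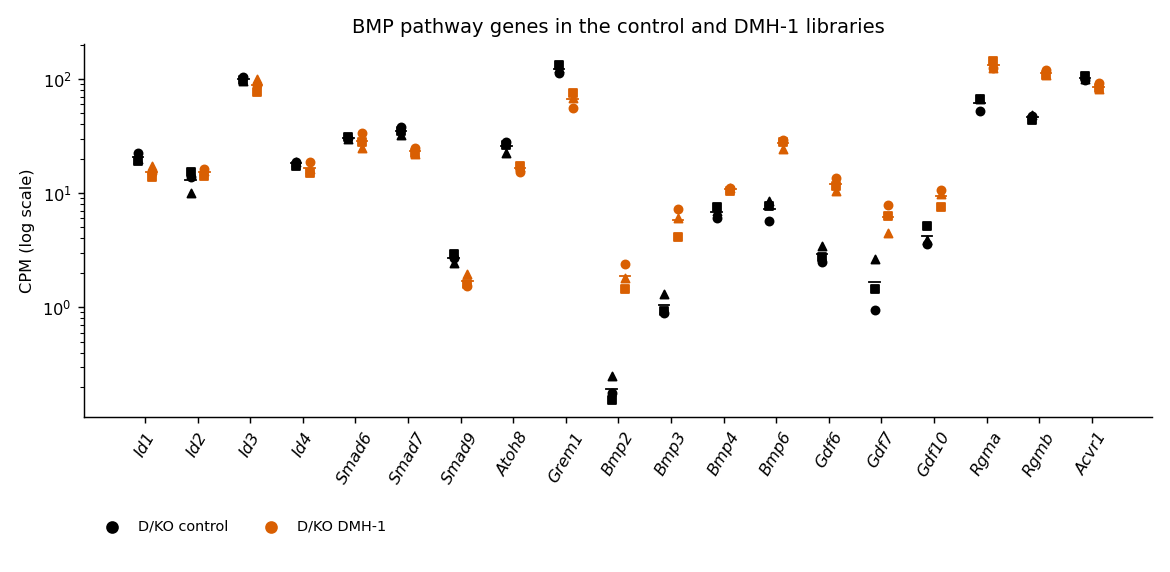
CPM (log scale) of BMP pathway genes in the 3 D/KO control libraries (black) and the 3 D/KO DMH-1 libraries (orange); symbols give the library's number and lines the group mean. The Id genes and Smad6 lie close in both groups, Smad7, Smad9, Atoh8 and Grem1 are lower with DMH-1, and the ligands, Rgma and Rgmb are higher.

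Receptors moved less. Acvr1, the gene of the receptor that DMH-1 targets, had 98.8, 105 and 99.9 CPM in the controls and 91.3, 83.8 and 82.3 CPM with DMH-1, just short of the threshold (log2 fold change -0.24 ± 0.074 (SE), adjusted p = 0.052). Bmpr1a (-0.087), Acvrl1 (0.20) and Tgfbr1 (-0.06) did not pass the test. Of 15 receptors and co-receptors tested, 3 rose, when 5.96% of all genes were called higher. The 3 were the BMP co-receptors Rgma, with 52.8, 67.2 and 66.1 CPM in the controls and 126, 144 and 125 CPM with DMH-1, and Rgmb, with 47.4, 43.7 and 48 CPM against 120.4, 109 and 108 CPM (log2 fold change 1.28 ± 0.087 (SE), adjusted p = 1.1e-07), and Tgfbr2 (0.54, and adjusted p = 0.12 without library 2). Tgfbr2 also lost its call without any 1 control library or without DMH-1 library 1. Of 12 Smads and their cofactors 3 fell, Smad7, Smad9 and Skil, and without library 2 Smad7 and Skil.

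Among 22 TGF-beta targets tested, 13 fell and 1 rose (median log2 fold change -0.671), when 3.79% of all genes were called lower. Without library 2, 12 fell (median -0.593). Ccn2, a matricellular growth factor that shares 24.4% of its exonic bases with Gm15270, had 735, 701 and 633 CPM in the controls and 403, 387 and 409.8 CPM with DMH-1 (log2 fold change -0.79 ± 0.10 (SE), adjusted p = 8.1e-05), with no overlap between the groups. Ltbp2, a matrix protein of the latent TGF-beta binding family, fell from 1567, 1831 and 1917 CPM to 751, 710.4 and 686 CPM, and Tgfbi fell by 0.61 on the log2 scale. Pmepa1, which dampens TGF-beta signaling, was the one that rose (log2 fold change 0.32 ± 0.078 (SE), adjusted p = 0.014), and it did not pass the test without library 2 (adjusted p = 0.069). Postn, a matricellular protein of wound fibroblasts, had 2605, 3312 and 2979 CPM against 2768, 2567 and 2797 CPM and did not pass the test (-0.13, 95% interval -0.44 to 0.18). Tagln, a smooth muscle gene, had 9.02, 7.49 and 7.86 CPM in the controls and 5.69, 3.59 and 5.45 CPM with DMH-1, but it shares 62.4% of its exonic bases with Gm48529 on the opposite strand, and whether the counting used strand is not given in the sources used here, so its value is uncertain.

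Most contractile genes fell. Of 18 tested, 12 fell (median log2 fold change -0.795), and 8 fell without library 2 (median -0.781). Acta2, smooth muscle actin, had 1412, 1205 and 1169 CPM in the controls and 485, 486 and 583 CPM with DMH-1 (log2 fold change -1.28 ± 0.15 (SE), adjusted p = 2e-05). Cnn1, calponin, had 142, 117 and 120.5 CPM against 25.6, 34.3 and 42.5 CPM (log2 fold change -1.89 ± 0.19 (SE), adjusted p = 5e-06). Lmod1, which nucleates actin filaments, had 41.1, 39.5 and 41.2 CPM against 13.4, 13.7 and 13.7 CPM (log2 fold change -1.58 ± 0.12 (SE), adjusted p = 1.9e-07). In each of the 3 genes the highest DMH-1 library was below the lowest control. Actg2, Myl9, Mylk, Smtn and Des also fell in both fits, with log2 fold changes of -1.51, -0.90, -0.83, -0.51 and -0.82 in the fit of all libraries. The 8 muscle markers, a separate list, summed to 18.7 to 24.1 CPM in the controls and 7.55 to 14.1 CPM with DMH-1, and of them Acta1 alone was called lower, while Myod1, Myog, Myf5, Pax7 and Ckm had no count in the 6 libraries.

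Matrix genes split. Of 24 genes of matrix assembly, 10 fell and 2 rose in both fits. The lysyl oxidases Lox, Loxl2, Loxl3 and Loxl4, which cross-link collagen and elastin, fell, with log2 fold changes of -0.79, -0.66, -1.06 and -1.19. Loxl3 had 677, 714 and 735 CPM in the controls and 325, 381 and 315 CPM with DMH-1. The prolyl and lysyl hydroxylases P4ha2, P4ha3 and Plod2 also fell (-0.59, -1.39 and -0.79). Eln, elastin itself, rose from 11.7, 13.9 and 12 CPM to 38.6, 27.9 and 22.6 CPM (log2 fold change 1.25 ± 0.16 (SE), adjusted p = 6.6e-05), and Fbln5, which binds elastin, rose by 0.56. Among 22 collagens, 7 fell and 1 rose, and without library 2 Col6a2 and Col7a1 passed the test, while the median log2 fold change was -0.316 with it and -0.326 without it. Col5a1, Col5a3, Col6a1, Col6a2 and Col16a1 lost their calls without control library 2, control library 3 or DMH-1 library 3, each left out alone, and of the 7 that fell Col7a1 alone kept its call in all 15 alternatives. Col7a1, the anchoring fibril collagen, had 36.5, 43.2 and 45.5 CPM against 18.5, 16 and 15.4 CPM. The main fibrillar collagens did not pass the test: Col1a1 was -0.25 (95% interval -0.52 to 0.023) and Col3a1 0.23 (-0.039 to 0.50).

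Of 28 proteoglycans and matricellular proteins, 10 fell and 4 rose. Prg4, lubricin, fell most of these, with 27, 34.2 and 35.1 CPM in the controls and 4.41, 5.1 and 5.24 CPM with DMH-1. Tnn, tenascin-W, fell from 166, 202 and 192 CPM to 62.7, 56.3 and 52 CPM, and Spp1, osteopontin, from 1046, 958 and 839.8 CPM to 319, 371 and 444 CPM. Has2, a hyaluronan synthase, fell as well (-1.09). On the other side, Ccn3 rose from 7.86, 10 and 8.54 CPM to 25.9, 21.4 and 26.4 CPM (log2 fold change 1.48 ± 0.12 (SE), adjusted p = 7.2e-07), and the small proteoglycans Dcn and Ogn rose by 0.54 and 0.97. Lum, of the same kind, was called higher with all libraries (0.33, and adjusted p = 0.078 without library 2), and Aspn, another, fell by 0.50. Lum also lost its call without control library 2, control library 3 or DMH-1 library 3. Without library 2 the counts of the list were 11 lower, Fmod being added, and 3 higher. Ccn2 and Ccn3, members of 1 family, moved in opposite directions. Of 20 cartilage and bone genes, 4 fell and 2 rose. Sox9, the master factor of cartilage, had 27, 32.6 and 33.2 CPM against 15.4, 16.7 and 14.1 CPM (adjusted p = 0.00047), while Mgp, an inhibitor of calcification, had 78.8, 61.6 and 62 CPM against 146, 127 and 202 CPM (log2 fold change 1.23 ± 0.26 (SE), adjusted p = 0.005). Of 21 matrix proteases and their inhibitors, 3 rose (Mmp11, Mmp15 and Adamts1) and 1 fell (Mmp19), when 5.96% of all genes were called higher and 3.79% lower. Adamts1 and Mmp19 did not pass the test without library 2 (adjusted p = 0.07 and 0.055).

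The 10 largest rises in the fit without library 2, among protein-coding genes called with no overlap between the groups, held 1 interferon-stimulated gene, Ifit3. The log2 fold changes (± SE) of the others given here are from that fit. Agtr2, the angiotensin II type 2 receptor, had 3.08, 3.49 and 4.55 CPM in the controls and 55.5, 49.5 and 41.3 CPM with DMH-1 (3.72 ± 0.18, adjusted p = 7.5e-09). Ace, the enzyme that makes angiotensin II, had 2.86, 3.03 and 3.56 CPM against 22.9, 28.8 and 29.2 CPM (3.05 ± 0.29, adjusted p = 7.5e-06). Pamr1, a secreted protease-like protein, had 36.6, 45.7 and 44.8 CPM against 264, 255 and 284 CPM (2.70 ± 0.10, adjusted p = 3.4e-10). Nrk, a kinase, had 0.893, 0.974 and 1.19 CPM against 11.2, 11.2 and 8.84 CPM, and Fbln7, a fibulin, had 1.47, 2.51 and 1.31 CPM against 12.6, 12.5 and 12.2 CPM. Ncald, a calcium sensor, and Crym, a thyroid hormone binding protein, rose by 2.82 and 2.76. Cdkn1c, an inhibitor of cell cycle kinases that shares 30.7% of its exonic bases with Gm44732, had 2.5, 1.74 and 2.12 CPM against 16.2, 13.8 and 15.2 CPM (2.88 ± 0.29, adjusted p = 1.2e-05). Bmp2, described above, was also of the 10. With all libraries, the 10 largest rises by the same rule, which leaves out Ifi44 for its overlap, were highest in library 2: Iigp1, Ifit3, Ifit1, Oasl2, Usp18, Isg15, Mx2, Ifit3b, Slfn8 and Apol9b, from 5.91 down to 3.90.

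The largest falls were nearly the same in both fits, with 9 genes shared of 10. Gjb5, a connexin of epithelial gap junctions, had 19.3, 16.2 and 13.2 CPM in the controls and 2.8, 4.57 and 3.33 CPM with DMH-1 (log2 fold change -2.18 ± 0.25 (SE), adjusted p = 2.3e-05). Tnfsf11, the osteoclast factor RANKL, had 3.62, 4.2 and 2.93 CPM against 0.856, 0.672 and 0.794 CPM (log2 fold change -2.21 ± 0.21 (SE), adjusted p = 2.7e-06), and Ppbp, a chemokine precursor, 22.4, 21.6 and 16.5 CPM against 4.25, 5.34 and 4.98 CPM (log2 fold change -2.06 ± 0.20 (SE), adjusted p = 3e-06). Wnt11, a secreted Wnt, had 2.9, 1.9 and 1.19 CPM against 0.559, 0.269 and 0.318 CPM (log2 fold change -2.36 ± 0.40 (SE), adjusted p = 0.00093). The Fc receptor genes Fcgr2b and Fcrlb had log2 fold changes of -3.28 and -2.22, and Plekhg4 and Draxin of -2.48 and -1.95. Fcrlb and Aoc3, an amine oxidase (-1.90), were each in the list of 1 fit only, and both passed the test in both fits.

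Genes of cell division were called lower in part. Of 26 mitotic genes, 10 fell (median log2 fold change -0.694), and 6 fell without library 2 (median -0.728). Top2a, topoisomerase II of dividing cells, had 32.7, 35.8 and 32.9 CPM in the controls and 15.7, 15.9 and 14.5 CPM with DMH-1 (log2 fold change -1.14 ± 0.20 (SE), adjusted p = 0.0011), and the mitotic kinase gene Aurka had 7.41, 7.54 and 6.8 CPM against 3.32, 4.26 and 3.6 CPM. Of 22 replication genes 3 fell, Mcm5, Rrm2 and Ccne1, and without library 2 Mcm5, Rrm2 and Pola1. The shares of all genes called lower were 3.79% and 2.26%. Of 22 p53 and cell cycle arrest genes, 6 rose and 1 fell: besides Cdkn1c, Cdkn2c rose by 0.90, Ei24 by 0.50, Sesn1 by 0.49, Trp53inp1 by 0.47 and Cdkn1a by 0.33, and Gadd45b fell by 0.68. Without library 2, Trp53inp1 did not pass the test (adjusted p = 0.08) and Btg2 did, and Trp53inp1 also lost its call without control library 3 or DMH-1 library 1. Cdkn1a, the p21 gene, had 542, 533 and 539 CPM in the controls and 692, 669 and 664 CPM with DMH-1, a small shift with no overlap. Of 30 nucleotide excision repair genes, edgeR called 0 in either fit, 3 passed an unadjusted p under 0.05 (5 without library 2), DESeq2 called 1 higher and 1 lower, and limma voom 2 and 2.

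Further lists moved in part, when 5.96% of all genes were called higher and 3.79% lower. Of 21 genes of glycolysis and hypoxia, 9 fell (median log2 fold change -0.343), and 4 passed the test without library 2 (Pfkp, Pgam1, Pdk1 and Bnip3, median of the list -0.312). Of 26 genes of cholesterol synthesis, 6 fell (median -0.273), and 3 passed the test without library 2 (median -0.276). Of 16 complement genes, 6 rose and 1 fell, and without library 2 all but C1ra were called. Serping1, the C1 inhibitor, had 86.6, 93.5 and 96.6 CPM in the controls and 199, 278 and 253 CPM with DMH-1 (log2 fold change 1.40 ± 0.10 (SE), adjusted p = 1.9e-07), and Cd55, which protects cells from complement, rose by 0.99. Of 16 Wnt targets and modulators, 3 rose and 3 fell: Sfrp2, a secreted Wnt antagonist, had 22, 25.6 and 27.8 CPM against 129, 108 and 98.6 CPM (log2 fold change 2.15 ± 0.12 (SE), adjusted p = 1.1e-08), and the stem cell receptor gene Lgr5 7.41, 8.82 and 8.54 CPM against 27.6, 26.9 and 22.1 CPM. The Wnt modulators Nkd2 and Dkk2 fell by 1.03 and 0.60, and Wif1 by 2.41 with all libraries only (adjusted p = 0.057 without library 2). Of 10 insulin-like growth factor genes 2 rose, Igfbp3 in both fits and Igf1 with all libraries. Igf1 lost its call when any 1 of the 6 libraries was left out, and kept it in 5 of 15 alternatives. Igfbp3, the main carrier of IGF in serum, had 527, 560.1 and 563 CPM against 1309, 1139.5 and 1355 CPM (log2 fold change 1.20 ± 0.087 (SE), adjusted p = 1.9e-07).

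**Figure D4:**
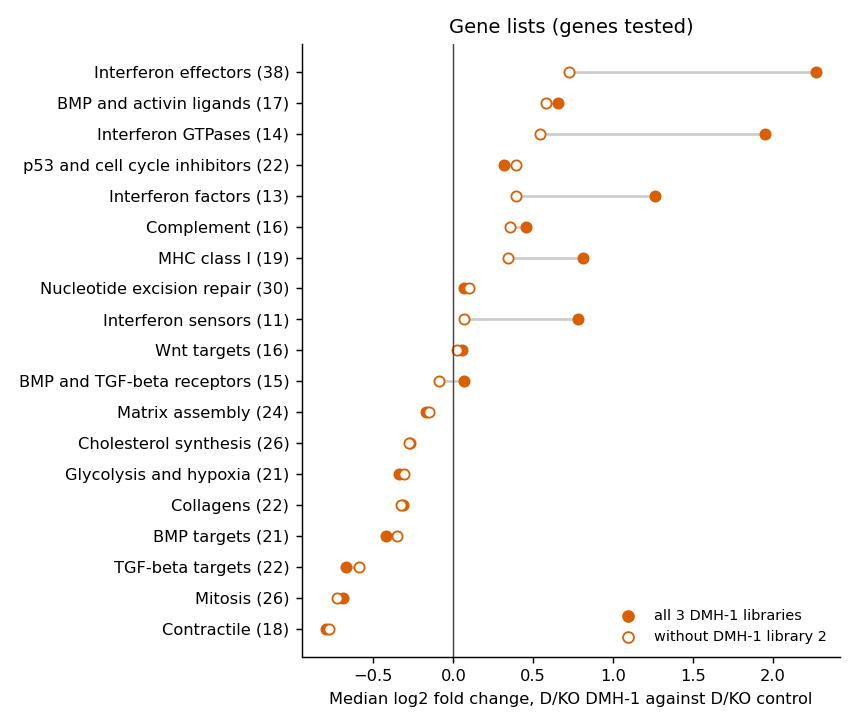
Median log2 fold change of each gene list, D/KO DMH-1 against D/KO control, with all 3 DMH-1 libraries (filled) and without DMH-1 library 2 (open); the number of genes tested is in parentheses. The interferon and MHC class I lists shift left without library 2, the effectors from 2.27 to 0.725, while the contractile, mitosis and TGF-beta target medians move by less than 0.1.

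A83-01, an inhibitor of the TGF-beta type I receptor ALK5 (Tgfbr1), was given at the same 1 µM for 3 days, so its libraries were compared with those of DMH-1 directly, with no control library in the contrast. Of 15164 genes, 2034 were higher and 1811 lower with DMH-1 than with A83-01 (13.4% and 11.9%, together 25.4%). Values in parentheses are log2 differences, DMH-1 minus A83-01, ± SE. The BMP targets were lower with DMH-1 in 14 of 21 genes and higher in 2, and without DMH-1 library 2 in 13 and 2. Their summed level was 1315 to 1383 CPM with A83-01, 787 to 823 CPM in the D/KO controls and 513 to 530 CPM with DMH-1. Id1 had 73.3, 45.5 and 59.5 CPM with A83-01 against 15.1, 13.7 and 17.1 CPM with DMH-1 (-1.96 ± 0.26, adjusted p = 2.2e-05). Id4 had 143, 139.7 and 146 CPM against 18.6, 14.9 and 16.1 CPM (-3.11 ± 0.11, adjusted p = 1.2e-11), and Smad6 99.9, 98 and 104 CPM against 33.3, 28.3 and 24.8 CPM (-1.80 ± 0.11, adjusted p = 3.7e-09). Atoh8 differed most among those that fell with DMH-1, with 181, 164 and 179.6 CPM against 15.3, 17.3 and 16.9 CPM. In each of these 4 genes every A83-01 library was above every DMH-1 library, and above every control library as well. In the controls Id4 had 18.8, 17.2 and 18.8 CPM and Smad6 30.6, 31 and 29.8 CPM, near their levels with DMH-1.

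TGF-beta targets differed in both directions, 10 higher and 7 lower with DMH-1 than with A83-01, of 22. Ccn2 had 131, 118 and 123 CPM with A83-01 and 403, 387 and 409.8 CPM with DMH-1 (1.69 ± 0.11, adjusted p = 4.9e-09), and Postn 501, 669.6 and 554 CPM against 2768, 2567 and 2797 CPM (2.24 ± 0.15, adjusted p = 1.6e-08). Of the contractile genes, 11 of 18 were lower with DMH-1 and 1 higher, and Acta2, Actg2, Tagln and Cnn1 belong to both lists. Acta2 had 949.6, 809 and 869.6 CPM with A83-01 against 485, 486 and 583 CPM (-0.76 ± 0.14, adjusted p = 0.00084), and Lmod1 78.5, 82.3 and 83.2 CPM against 13.4, 13.7 and 13.7 CPM (-2.58 ± 0.12, adjusted p = 1.6e-10). Mitotic genes were higher with DMH-1 in 14 of 26.

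Among the genes that rose with DMH-1, Agtr2 was at 2.5, 3.44 and 2.15 CPM with A83-01 and 55.5, 49.5 and 41.3 CPM with DMH-1 (4.18 ± 0.17, adjusted p = 3.5e-11), and Igfbp3 at 485, 544 and 506 CPM against 1309, 1139.5 and 1355 CPM (1.31 ± 0.088, adjusted p = 1.2e-08). Pamr1 was higher with A83-01, at 749, 755 and 720.4 CPM against 264, 255 and 284 CPM. Ace did not pass this test, at 15.2, 26.7 and 18.1 CPM against 22.9, 28.8 and 29.2 CPM (0.43 ± 0.23, adjusted p = 0.21). Of the 76 interferon-stimulated genes, 35 were higher with DMH-1 than with A83-01 and 2 lower. Without DMH-1 library 2 the counts were 5 and 9, with a median difference of -0.0066, when 10.5% of all genes were higher and 9.33% lower, together 19.8%. Ifit3 had 21.5, 22.6 and 15.9 CPM with A83-01, around the 18.5 CPM of DMH-1 libraries 1 and 3.

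**Figure D5:**
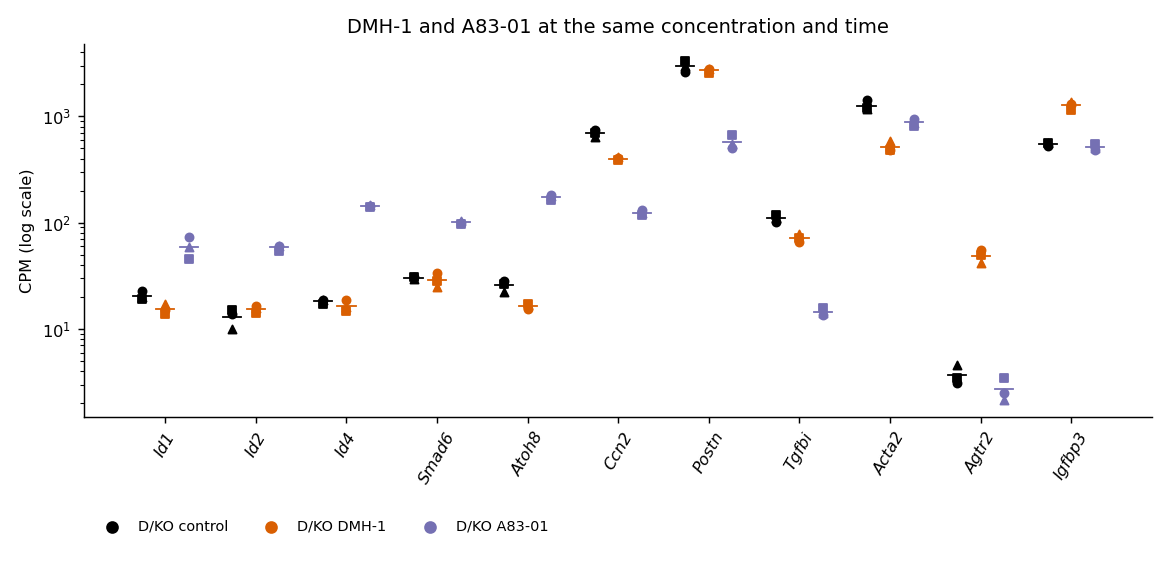
CPM (log scale) of BMP targets, TGF-beta targets, Agtr2 and Igfbp3 in the D/KO control (black), DMH-1 (orange) and A83-01 (purple) libraries; symbols give the library's number and lines the group mean. Id1, Id2, Id4, Smad6 and Atoh8 are higher with A83-01, and Agtr2 and Igfbp3 are higher with DMH-1.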

How the data were processed

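PolyA RNA from tail tip fibroblasts was sequenced by the authors (paired end, 150 bp). Per the labels and the study's methods, reads were checked with FastQC, trimmed with Trim Galore, aligned with HISAT2 to GRCm39 and counted per gene with featureCounts (Subread), and the versions, the annotation and the strand setting are not given in the sources used here. The deposited values used here are raw counts per gene, not normalized, of the inhibitor table. The table of the reprogramming samples was not used here.

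Groups came from the treatment and genotype in the labels. The 18 tail tip libraries were fitted together with 1 coefficient per group by edgeR 4.0.16 (R 4.3.3, limma 3.58.1): TMM, filterByExpr with a minimum count of 10 and a total of 15, glmQLFit and glmQLFTest, two-sided, Benjamini-Hochberg over all genes tested, called at an adjusted p under 0.05. The SE is the log2 fold change over the root of its F value. The same fit was repeated without DMH-1 library 2, and DMH-1 was contrasted with A83-01 in it. DESeq2 1.42.0 was an alternative. The scripts were tested on simulated counts.

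Genes were named by a rule: the 10 largest rises and falls among protein-coding genes called, with a mean of at least 1 CPM over the 6 libraries and no overlap between groups, in the fit with and the fit without DMH-1 library 2, and members of the gene lists. The members, lists and rule were chosen with earlier results of these data known. Exonic overlap was computed from the exon coordinates deposited with the counts, and gene symbols and biotypes were read from GENCODE M39. Promoters came from RefSeq (GRCm38.p6), whose coordinates differ from those of the files' build. Totals of 17102639 to 30599138 counts set the precision. The variance between libraries of a group was 4.26 to 39.6 times the counting variance, so no 2 libraries were copies. Inhibitor doses and the treatment time come from the study's own text. Some genes that the rule names are not reported here.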

Additional observations from a re-analysis of the deposited data

How the results depend on the processing

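No paired analysis was possible because the labels number the libraries in 1 series across the groups, so the groups compared share no replicate number. The count of genes higher with DMH-1 (904) became 1598 with limma voom and 344 when a log2 change of 1 or more was also asked, and ran from 532 to 766 with 1 library left out. The count lower (575) became 865 with DESeq2, 1305 with limma voom, 876 with the 6 libraries alone and 150 with that minimum change, and ran from 315 to 429. Without DMH-1 library 2, the 619 higher became 949 with 5 libraries alone and 254 with that minimum, and the 352 lower became 621 with DESeq2, 793 with 5 libraries and 119 with that minimum. Genes of the interferon, chemokine and MHC class I lists called higher (54) ran from 16 to 69 with 1 library left out. The causes were not tested. Ifi44 (5.01) ran from -0.24, without DMH-1 library 2, to 5.58, without DMH-1 library 1. The counts of TGF-beta and BMP targets called lower and of the A83-01 contrast stayed within 1.5 times under each alternative run. Of 228 genes named, 77 lost their call but not their direction without DMH-1 library 2, where Ifi44 lost both, and 67 to 76 lost their call without a control library. The share of called genes that were higher was 52.6% to 65.4% over the fits, and no scaling moved the median of all genes by over 0.1 (log2). Wif1, a low gene, kept its call in 6 of 13 alternatives, and genes under the count filter were not tested at this depth.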
